A study of Mus musculus with 14 samples.

Results

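The genes described here write, copy and oxidise cytosine methylation: the methyltransferase genes *Dnmt1*, *Dnmt3a* and *Dnmt3b*, the cofactor genes *Dnmt3l* and *Uhrf1*, and the dioxygenase genes *Tet1*, *Tet2* and *Tet3*. These 8 genes were chosen by symbol and found through their RefSeq accessions among the 23152 loci of each RNA-seq table, and all 8 were present. Their level was read in 11 poly-A RNA libraries as FPKM, fragments counted on a gene's transcripts and divided by their length and by the size of the library. DNA methylation itself was not measured in these samples.

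The study asked what TAF9B, a subunit related to the TFIID protein TAF9, does as mouse embryonic stem (ES) cells become motor neurons. ES cells of the line JM8 (wild type, C57BL/6) and of Taf9b_BG10, a single C57BL/6 clone in which a LacZ-Neo cassette stands in place of every coding exon of the X-linked *Taf9b*, were compared undifferentiated and as embryoid bodies (EBs) at day 2, 4 and 6 in retinoic acid and the smoothened agonist SAG. Both ES lines were cultured with leukemia inhibitory factor and fetal bovine serum, on feeder layers of mouse embryonic fibroblasts treated with mitomycin C. Newborn spinal column of wild type (WT) and *Taf9b* KO C57BL/6 mice, from a line derived from the same KO ES cells, and newborn WT spinal cord completed the RNA series. TAF9B and RNA POL2 binding was mapped by ChIP in motor neuron EBs (EB-MN) of HBG3, a WT line that carries GFP under the motor neuron promoter of *Mnx1*. There was 1 library per condition, so no spread between replicates and no test exist, and read counts are not part of the tables, so the depth behind a value is unknown. Differences are described by size only, and a gene is counted when it differed more than 2-fold, with loci below 1 FPKM in both libraries set aside.

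In culture the targeted gene was listed higher in the libraries labelled KO. *Taf9b* was at 0.537 FPKM in the ES library labelled WT and 3.06 in the one labelled KO, and the labelled KO library was also the higher one at day 2 (4.08 against 0.516), day 4 (4.27 against 1.96) and day 6 (4.01 against 1.37). In spinal column it was at 6.65 FPKM in the WT library and 3.31 in the KO library, and in spinal cord at 7.44. Each library has a single value per locus, so reads of coding exons cannot be told from reads of other parts of *Taf9b*. These values thus do not show which libraries lack the coding exons, in culture or in spinal column. Libraries are therefore named by their labels, and each direction below refers to the label alone. Of 10 pluripotency genes 10 were above 1 FPKM in both day 6 libraries, with medians of 41.4 FPKM (labelled WT) and 101 FPKM (labelled KO), against 3.84 and 25.1 at day 4. The 10 neuron genes had day 6 medians of 23.1 FPKM (labelled WT) and 1.56 FPKM (labelled KO). Bulk RNA cannot tell fewer cells of a type from less RNA per cell.

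DNMT1 copies methylation onto the new strand after replication, and UHRF1 recruits it by binding hemimethylated CpG. DNMT3A and DNMT3B set methylation on unmethylated DNA, and DNMT3L, which has no catalytic activity of its own, stimulates both. The TET enzymes oxidise methylcytosine to hydroxymethylcytosine and beyond, from where thymine DNA glycosylase and base excision repair can restore cytosine. In mouse ES cells *Tet1* and *Tet2* are the TET genes known to be active, and *Dnmt3b* and *Dnmt3l* are known as genes of the pluripotent and early embryonic state.

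On mm9 the tables place *Dnmt1* at chr9:20711650-20764332, *Uhrf1* at chr17:56442760-56462909, *Dnmt3a* at chr12:3806980-3914443 and *Dnmt3b* at chr2:153475190-153513466. *Dnmt3l* is placed at chr10:77492776-77526360, *Tet1* at chr10:62267318-62342762, *Tet2* at chr3:133126641-133207354 and *Tet3* at chr6:83312368-83391672. The *Dnmt3l* locus of the tables overlaps *Aire* and begins before the first *Dnmt3l* start of RefSeq, base 77505032 on the plus strand. The *Tet1* locus of the tables ends before the *Tet1* start of RefSeq, base 62350072.

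The genes start in sequence of unlike CpG content, and 4 stretches are shown because the expression patterns or the ChIP peaks described below refer to them. RefSeq promoter windows of 300 bases (250 before and 50 after a start) were placed on mm9 by exact match, which gave 15 start sites for the 8 genes. Across 32851 such windows of the RefSeq table (build GRCm38.p6) the median held 7 CpG. The *Tet2* window held 57, more than in 99.8% of all windows, and those of the upstream *Dnmt3a* starts 46 and 47. *Dnmt3b* had 30, *Tet3* 22 and *Tet1* 17 CpG. The 3 *Dnmt3l* windows held only 6, 4 and 3, the lowest set among these genes apart from an upstream *Dnmt1* start with 2. The stretches before the start are given 5′ to 3′ on the strand of the gene. For *Tet2* and *Dnmt3l* the capitals mark each CpG, in 250 bases at chr3:133207355-133207604 (minus strand) and 150 bases at chr10:77504882-77505031 (plus strand), both outside the exons of their own gene.
Tet2: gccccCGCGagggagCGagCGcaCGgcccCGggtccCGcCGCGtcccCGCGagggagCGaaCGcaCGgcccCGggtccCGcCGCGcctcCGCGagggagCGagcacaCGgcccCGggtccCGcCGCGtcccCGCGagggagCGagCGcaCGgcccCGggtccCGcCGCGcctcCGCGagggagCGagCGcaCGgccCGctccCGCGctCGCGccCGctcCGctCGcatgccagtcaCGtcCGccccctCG
Dnmt3l: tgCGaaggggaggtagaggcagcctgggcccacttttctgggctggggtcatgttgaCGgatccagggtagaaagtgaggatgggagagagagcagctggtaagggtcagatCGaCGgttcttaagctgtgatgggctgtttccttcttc

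*Uhrf1* is shown with the 250 bases before its CpG-rich start at chr17:56443486-56443735 (plus strand), since its level ran with genes of DNA replication. The capitals mark a match to the letters of the E2F family, the factors of G1 to S phase genes (TTTCCCGC, TTTCGCGC, TTTGCCGC or TTTGGCGC on either strand).
Uhrf1: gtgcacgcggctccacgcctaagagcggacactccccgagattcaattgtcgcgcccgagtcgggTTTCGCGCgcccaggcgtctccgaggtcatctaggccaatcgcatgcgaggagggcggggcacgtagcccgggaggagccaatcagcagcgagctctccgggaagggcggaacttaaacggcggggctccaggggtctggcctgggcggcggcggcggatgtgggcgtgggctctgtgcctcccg

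Such letters were found in 2.26% of the 32851 windows, and among these 8 genes at 1 start each of *Uhrf1* and *Dnmt1*, the windows with 33 CpG in each gene. Each of these words contains a CpG and the median window held 7, so the share is not matched for CpG content. Whether E2F factors act at these starts was not tested. The *Dnmt1* window at chr9:20757018-20757317 overlaps the first coding exon of another transcript of the gene. CCAAT on either strand stood in 37.4% and GGGCGG in 35.7% of all windows, TATAAA in 13.6%. None of the 15 windows held TATAAA. The *Tet1* stretch, 260 bases of an intron at chr10:62328053-62328312 (mm9, minus strand), lies under the strongest TAF9B peak found near any of the 8 genes and is shown with each CpG in capitals.
Tet1: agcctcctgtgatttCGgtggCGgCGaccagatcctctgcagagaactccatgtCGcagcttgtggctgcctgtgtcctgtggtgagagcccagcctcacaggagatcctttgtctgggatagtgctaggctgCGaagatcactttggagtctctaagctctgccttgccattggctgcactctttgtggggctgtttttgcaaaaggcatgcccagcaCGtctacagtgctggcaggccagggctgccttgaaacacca

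The maintenance genes were higher in culture than in tissue, and in the libraries labelled WT both were lower at day 6 than at day 4. *Uhrf1* was at 124, 115, 134 and 70.7 FPKM in the libraries labelled WT at ES, day 2, day 4 and day 6, and at 129, 101, 85.1 and 86.7 FPKM in those labelled KO. Spinal column gave 4.24 (WT) and 4.54 FPKM (KO) and spinal cord 2.60 FPKM. *Dnmt1* was at 54.7, 49.99, 78.2 and 37.8 FPKM over the labelled WT series and at 51.1, 47.7, 54.7 and 43.7 FPKM over the labelled KO series, against 8.03, 5.36 and 13.7 FPKM in WT column, KO column and cord. The authors' program marked the estimates of *Dnmt1* as FAIL at day 2, day 6 and in spinal column, a mark that 19 to 58 loci carry in those tables, so these values are less certain. *Uhrf1* exceeded *Dnmt1* in every culture library, by 1.56-fold to 2.51-fold, and was below it in every tissue library, at 0.190 times *Dnmt1* in cord.

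**Figure D1:**
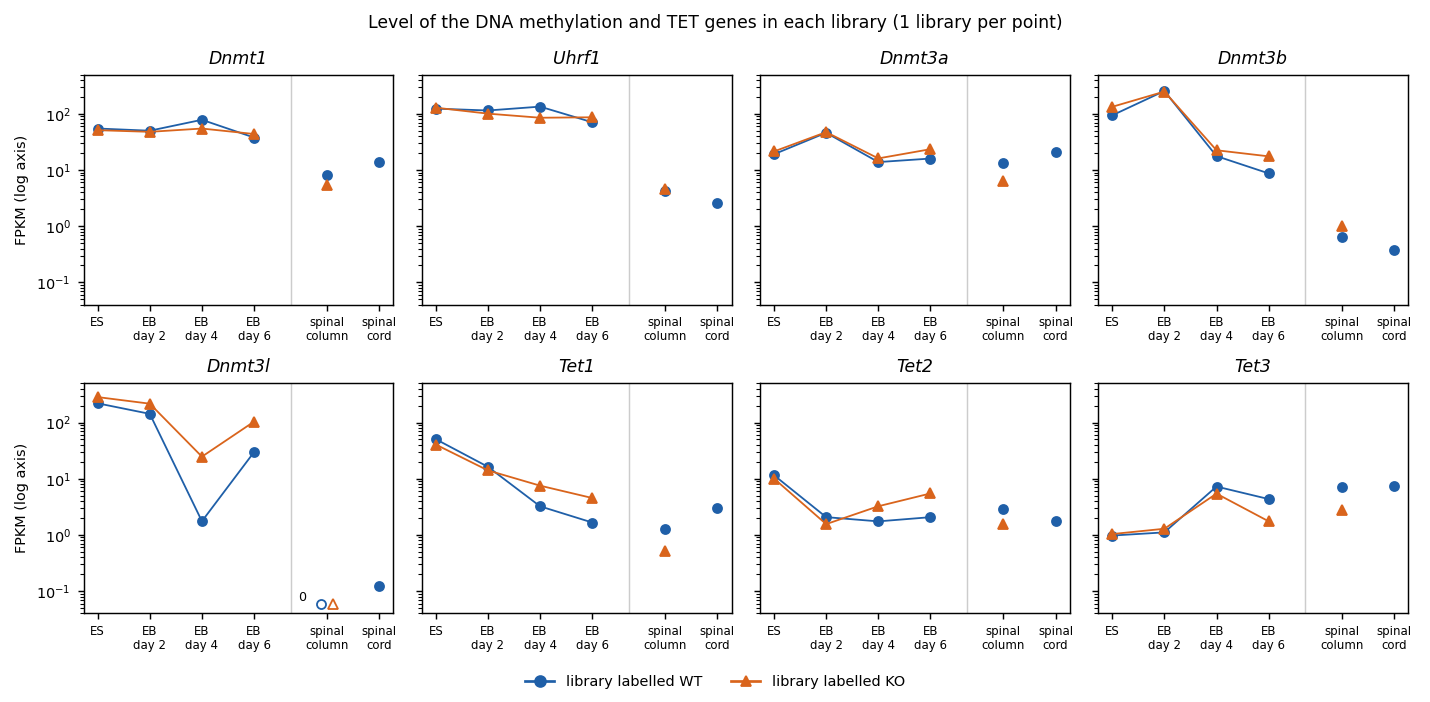
FPKM on a log axis of each of the 8 genes in the 11 libraries, from ES cells through EB day 2, 4 and 6 to newborn spinal column and spinal cord; circles are libraries labelled WT, triangles libraries labelled KO, each point is 1 library, and open symbols mark a listing of 0. *Dnmt1* and *Uhrf1* stay between 37.8 and 134 FPKM in culture, *Dnmt3l* drops and returns between day 2 and day 6, and *Tet3* is the gene that is lowest in ES cells.

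The patterns most like that of *Uhrf1* belonged to replication genes. By the root mean square difference of centred log2(FPKM + 1) over the 11 libraries, the nearest of 12476 genes were the replicative helicase genes *Mcm3* (0.08), *Mcm5* (0.14) and *Mcm2* (0.22), where the median gene lay at 2.00. *Mcm3* was at 150 FPKM in the ES library labelled WT, 83.6 at day 6 and 3.31 in spinal cord. The closest patterns to *Dnmt1* were those of *Supt16* (0.15), a subunit of the histone chaperone FACT, *Hnrnpu* (0.18) and *Ppp2r1b* (0.21). A list of 16 cell division genes, which holds *Mcm2*, *Mcm3* and *Mcm5*, had a median of 150 FPKM in the ES library labelled WT, 82.5 at day 6, 6.67 in WT column and 4.82 in cord, and its part in the level of *Uhrf1* and *Dnmt1* was not tested.

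**Figure D2:**
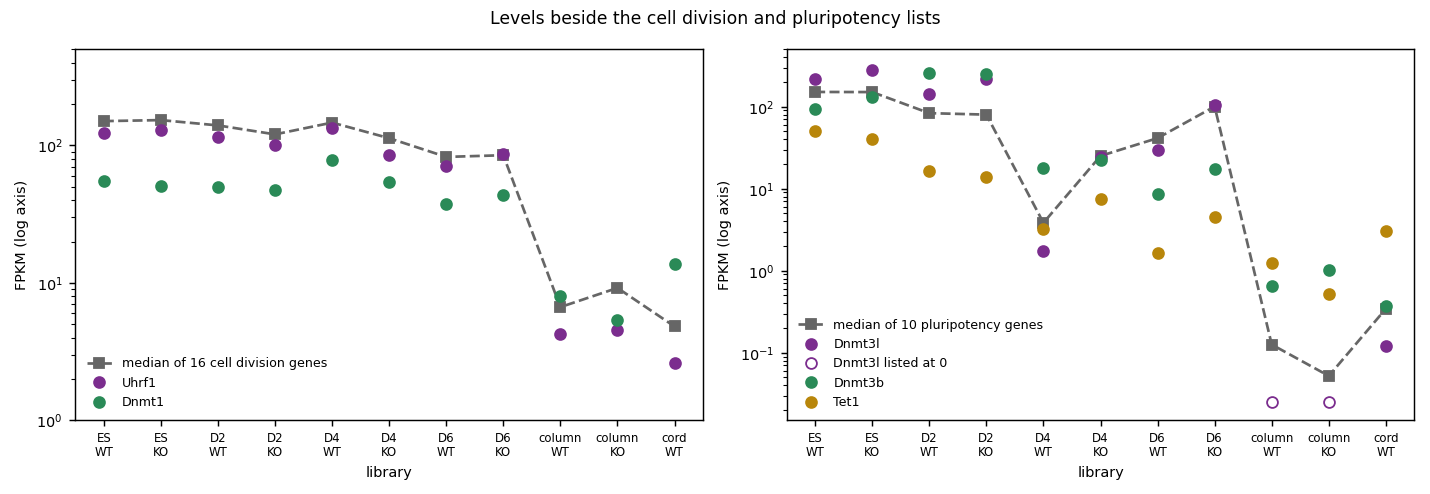
FPKM on a log axis in each of the 11 libraries; squares joined by a dashed line are the median of a gene list, points are single genes, and open points are listings of 0. On the left, *Uhrf1* lies close to the median of 16 cell division genes, from 150 FPKM in ES cells to 4.82 in cord; on the right, the pluripotency median is 3.84 FPKM at day 4 in the library labelled WT, where *Dnmt3l* stands at 1.75.

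The de novo enzymes separated during differentiation. *Dnmt3b* was at 93.9 FPKM in the ES library labelled WT, 255 at day 2, 17.7 at day 4 and 8.70 at day 6, and in the libraries labelled KO at 133, 249, 22.4 and 17.5 FPKM. In tissue it was near the 1 FPKM floor, with 0.648 in WT column, 1.02 in KO column and 0.376 in cord. Both series thus peaked at day 2. *Dnmt3a* also peaked at day 2 but then stood near its ES level: 19.1, 46.0, 13.8 and 15.98 FPKM in the labelled WT series and 21.4, 47.2, 16.1 and 23.5 in the labelled KO series. In WT column, KO column and cord it stood at 13.2, 6.25 and 20.8 FPKM, and it was the highest of the 8 genes in all 3 tissue libraries.

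The balance of *Dnmt3b* and *Dnmt3a* can be read inside a library, where the normalization cancels. *Dnmt3b* was 4.92 and 6.23 times *Dnmt3a* in the ES libraries labelled WT and KO, and 5.54 and 5.27 times at day 2. At day 4 the ratios were 1.28 and 1.40, and at day 6 0.544 and 0.746. *Dnmt3b* was above *Dnmt3a* in 6 of 11 libraries, all of them ES, day 2 or day 4, while at day 6 and in tissue *Dnmt3a* was the higher. In WT column *Dnmt3a* exceeded *Dnmt3b* 20.4-fold, in KO column 6.11-fold and in cord 55.3-fold.

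**Figure D3:**
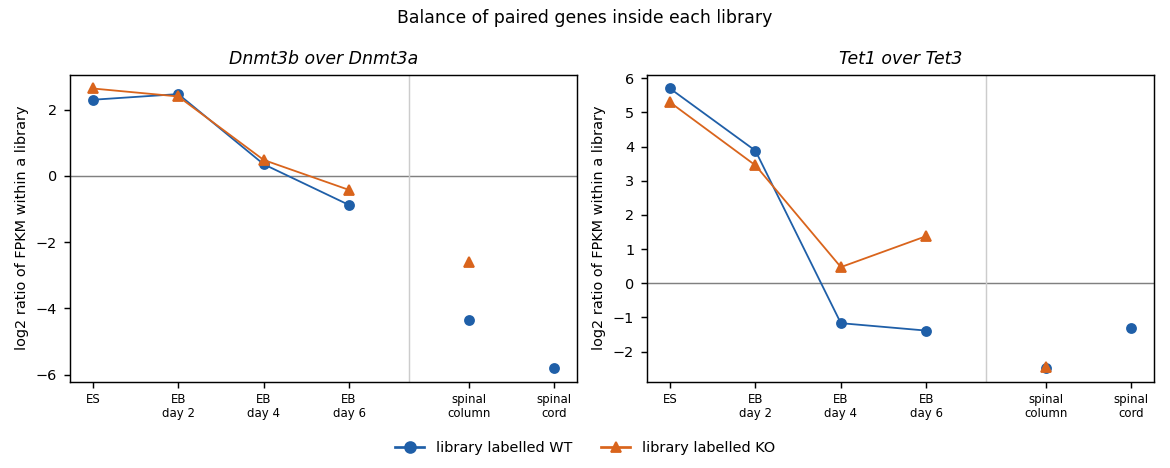
Log2 ratio of FPKM inside each of the 11 libraries, *Dnmt3b* over *Dnmt3a* on the left and *Tet1* over *Tet3* on the right; circles are libraries labelled WT and triangles libraries labelled KO, 1 library per point. *Dnmt3b* over *Dnmt3a* runs from 2.64 to -5.79, and *Tet1* over *Tet3* from 5.70 to -2.48, with the labelled WT and KO libraries on opposite sides of 0 at day 4 and day 6 for the TET pair only.

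*Dnmt3l* showed the widest range. It was the highest of the 8 genes in both ES libraries, at 220.0 FPKM in the one labelled WT and 284 in the one labelled KO, and stood at 143 and 217 FPKM at day 2. The day 4 libraries gave 1.75 FPKM (labelled WT) and 24.7 FPKM (labelled KO), and those of day 6 29.9 and 104 FPKM. The day 6 level was thus above the day 4 level in both series. It was listed at 0 in both spinal column libraries, marked NOTEST by the authors' program, and at 0.121 FPKM in cord, marked OK. *Acta1*, a skeletal muscle actin gene, was also listed at 0 in both column libraries, so a listing of 0 there is no measure of absence. The *Dnmt3l* locus of the tables overlaps *Aire*, which was low throughout, from 3.30 FPKM in the ES library labelled KO to 0 in tissue.

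The genes closest to *Dnmt3l* in pattern were *L1td1* (root mean square difference 0.21), which encodes an RNA-binding protein of pluripotent cells, *Tdh* (0.50), the threonine dehydrogenase of mouse ES cells, and *Utf1* (0.67), where the median gene lay at 3.24. *L1td1* was at 1.70 FPKM at day 4 and 23.7 at day 6 in the libraries labelled WT. For *Dnmt3b* the nearest were *Trh* (0.47), *Rbpms2* (0.76) and *Zscan10* (0.82). For *Dnmt3a* they were *Cbs* (0.29), *Rabggta* (0.29) and *Bicdl1* (0.30). Of the 10 pluripotency genes 10 were more than 2-fold lower at day 4 than at day 2 in the libraries labelled WT and 10 more than 2-fold higher at day 6 than at day 4, with a median log2 ratio of 3.82 for the second step against 0.10 over all loci tested. A gene that is above 1 FPKM on 1 side only is counted through the side where it is high, and 3 of the 10 were below 1 FPKM at day 4. The other 7 were past 2-fold at both steps. *Pou5f1* was at 829, 19.9 and 198 FPKM at days 2, 4 and 6 of that series. Whether the cells behind these genes also carried the *Dnmt3l* transcripts was not tested.

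Among the TET genes the leading one changed. *Tet1* was at 50.5, 16.3, 3.23 and 1.66 FPKM over ES, day 2, day 4 and day 6 of the labelled WT series, lower at each step, and at 40.6, 14.1, 7.52 and 4.54 FPKM over the labelled KO series. Tissue gave 1.26 (WT column), 0.516 (KO column) and 3.02 FPKM (cord), with the estimates of day 4 and of spinal column marked FAIL. *Tet2* was at 11.5, 2.07, 1.74 and 2.07 FPKM in the labelled WT series and at 10.1, 1.56, 3.24 and 5.47 in the labelled KO series, against 2.89, 1.54 and 1.77 FPKM in WT column, KO column and cord. Both were highest in ES cells. *Tet3* ran the other way, at 0.974, 1.11, 7.26 and 4.35 FPKM in the labelled WT series and 1.04, 1.29, 5.43 and 1.75 FPKM in the labelled KO series. In WT column, KO column and cord it was at 6.98, 2.83 and 7.56 FPKM.

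Inside a library, *Tet1* made up 80.1% of the summed FPKM of the 3 TET genes in the ES library labelled WT and *Tet3* 1.54%. At day 6 the shares were 20.6% and 53.8% in the library labelled WT, but 38.6% and 14.8% in the library labelled KO, where *Tet2* was the largest with 46.6%. In spinal cord *Tet3* held 61.2%. *Tet1* was above *Tet3* in 6 of 11 libraries: both ES libraries, both day 2 libraries and the labelled KO libraries of day 4 and day 6. The closest patterns to *Tet3* were *Fam171a1* (root mean square difference 0.13), *Maml3* (0.20), a coactivator of Notch signalling, and *Nat8l* (0.22), the enzyme of neuronal N-acetylaspartate synthesis. *Tet1* lay nearest to *Rest* (0.47), the repressor of neuronal genes, then *Mpzl2* (0.55) and *1700063D05Rik* (0.63), and *Tet2* to *Sp5* (0.35), *Myof* (0.36) and *Gzme* (0.38).

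Counted step by step, most genes were past 2-fold between day 2 and day 4 in both series. These ratios set side by side tables that the authors normalized separately, and each step shares a library with the next. The ES library labelled WT is listed in 2 tables, whose values differed by a factor of 1.09 in the same direction for all 8 genes. From ES to day 2, 4 of the 8 genes differed more than 2-fold in the libraries labelled WT, where 13.2% of all loci tested did: *Dnmt3a* (log2 ratio 1.27) and *Dnmt3b* (1.44) were higher, *Tet1* (-1.63) and *Tet2* (-2.48) lower. In the libraries labelled KO it was 3 of 8 against 14.4%, with *Dnmt3a* at 1.14, *Tet1* at -1.53 and *Tet2* at -2.69, while *Dnmt3b* stood at 0.90. *Dnmt3l* was lower and within 2-fold in both series, at -0.62 and -0.39.

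From day 2 to day 4, 5 of 8 were past 2-fold in the libraries labelled WT against 29.4% of all loci: *Dnmt3l* (-6.35), *Dnmt3b* (-3.85), *Tet1* (-2.34) and *Dnmt3a* (-1.73) were lower and *Tet3* (2.71) higher. In the libraries labelled KO 5 of 8 were past 2-fold against 23.1%, with *Dnmt3b* at -3.47, *Dnmt3l* at -3.13, *Dnmt3a* at -1.55, *Tet2* at 1.06 and *Tet3* at 2.08. From day 4 to day 6, 3 of 8 differed in the libraries labelled WT against 26.9%: *Dnmt3l* (4.09) was higher, *Dnmt1* (-1.05) and *Dnmt3b* (-1.02) lower. In those labelled KO 2 of 8 did against 23.5%, *Dnmt3l* (2.07) and *Tet3* (-1.64). After subtracting the median log2 ratio of all expressed loci (0.10), 5 of 8 passed in the labelled WT libraries at this last step, since *Uhrf1* (-0.92) and *Tet1* (-0.96) lay close to the limit.

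Newborn spinal cord and ES cells were set side by side by the authors in 1 table. Of the 8 genes 6 were more than 2-fold lower in cord, against 35.7% of the 14378 loci tested, and 1 was more than 2-fold higher, against 30.4%. *Dnmt3l* (-10.95 on the log2 scale, from 240 FPKM in ES cells as listed there) and *Dnmt3b* (-8.09, from 102) had the largest differences, and both ratios rest on cord values under 1 FPKM: with 1 FPKM added they were -7.75 and -6.23. *Uhrf1* was 51.7-fold lower, *Tet1* 18.2-fold, *Tet2* 7.11-fold and *Dnmt1* 4.36-fold lower. *Tet3* was 7.12-fold higher, from 1.06 FPKM. *Dnmt3a* alone was equal in the libraries, at 20.8 FPKM in each. The median log2 ratio of the 8 genes was -3.51, against -0.26 for all loci tested, so that the directions hold relative to that shift.

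The libraries labelled KO and WT were close in ES cells and at day 2. None of the 8 genes differed more than 2-fold in ES cells, where 1.13% of 12021 loci did, and the largest log2 ratio was that of *Dnmt3b* (0.50). None did at day 2, against 2.56% of loci, with *Dnmt3l* (0.60) the farthest from 0. Of the 8 genes, 5 were higher and 3 lower under the KO label in ES cells, and 3 higher and 5 lower at day 2.

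At day 4, 2 of 8 differed, against 16.5% of 12549 loci. *Dnmt3l* was 14.1-fold higher in the library labelled KO (log2 ratio 3.82, and 3.23 with 1 FPKM added), and *Tet1* 2.33-fold higher from an estimate marked FAIL. *Uhrf1* (-0.66), *Dnmt1* (-0.52) and *Tet3* (-0.42) were lower and within 2-fold. The cell division list had a median log2 ratio of -0.40, with 0 of 16 past 2-fold, and all 10 pluripotency genes exceeded 2-fold with the labelled KO library the higher, at a median of 3.16 (2.99 over the 7 above 1 FPKM in both). Of 6 fibroblast and feeder genes 4 were above 1 FPKM in the labelled KO library alone and so could only be higher there; the other two, *Col1a1* (1.23 and 9.74 FPKM) and *Col1a2* (1.72 and 6.44 FPKM), were also past 2-fold. Of the neural progenitor genes 5 of 6 were more than 2-fold lower (median -2.78). The part of these cells in the ratios at day 4 was not tested.

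At day 6, 5 of 8 differed, against 20.4% of 12996 loci. The library labelled KO was higher for *Dnmt3l* (3.48-fold), *Tet1* (2.73-fold), *Tet2* (2.65-fold) and *Dnmt3b* (2.01-fold) and lower for *Tet3* (2.49-fold). *Dnmt3a* (0.55), *Uhrf1* (0.29) and *Dnmt1* (0.21) were higher and within 2-fold. With 1 FPKM added, *Dnmt3b* (0.93) and *Tet3* (-0.96) fell short of the limit, which left 3 of 8. Of the pluripotency genes 8 of 10 were more than 2-fold higher in the library labelled KO (median 1.52), and 10 of 10 neuron genes (median -4.04) and 6 of 6 neural progenitor genes (median -2.45) were more than 2-fold lower. Of these, 6 neuron and 5 neural progenitor genes were above 1 FPKM in both libraries, and the rest only in the labelled WT one. A list of 6 fibroblast and feeder genes, all above 1 FPKM in both day 6 libraries, summed to 46.3 FPKM (labelled WT) and 125 FPKM (labelled KO), with 336 and 365 in the ES libraries, 50.9 and 54.8 at day 2 and 4.42 and 31.9 at day 4. In the labelled WT series this list thus had its lowest level at day 4, as *Dnmt3l* did, and 4 of the 6 were below 1 FPKM there. The part of these cell types in the ratios of the 8 genes was not tested.

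**Figure D4:**
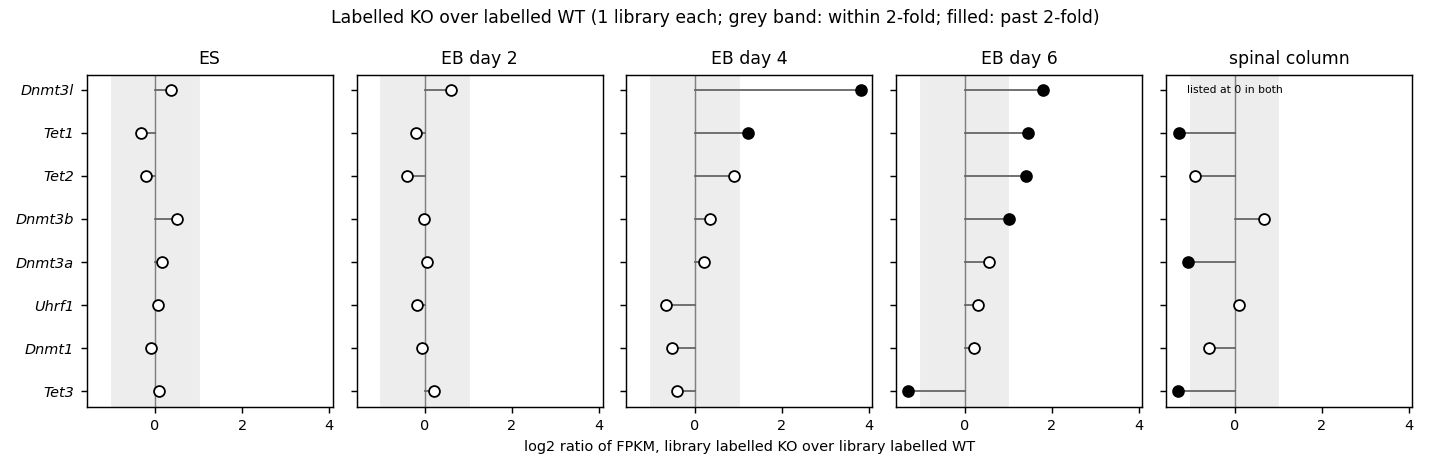
Log2 ratio of FPKM, library labelled KO over library labelled WT, for the 8 genes in ES cells, EBs of day 2, 4 and 6 and newborn spinal column, 1 library on each side; the grey band is within 2-fold and filled points are past it. No point is filled in ES cells or at day 2, 2 are filled at day 4, 5 at day 6 and 3 in spinal column, where *Dnmt3l* has no ratio.

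In spinal column 3 of the 7 genes tested differed, against 17.6% of 14249 loci, all lower in the KO library. *Tet3* was 2.47-fold lower, *Tet1* 2.43-fold (an estimate marked FAIL, and 0.516 FPKM in the KO library) and *Dnmt3a* 2.12-fold lower. With 1 FPKM added only *Tet3* remained past 2-fold, at a log2 ratio of -1.06. *Tet2* (-0.91) and *Dnmt1* (-0.58) were lower too, *Uhrf1* (0.10) and *Dnmt3b* (0.66) were not. The neuron list was also lower in the KO library, 5 of 9 genes past 2-fold with a median log2 ratio of -1.04, and 6 of 6 neural progenitor genes were lower, with 1 past 2-fold that was below 1 FPKM in the KO library (median -0.77, and -0.49 over the 4 above 1 FPKM in both), as were 5 of 5 glia genes (median -0.58), all within 2-fold. Of 16 cell division genes 13 were higher in the KO library (median 0.51), and *Alas2*, the heme synthesis gene of erythroid cells, was at 17.0 FPKM in the WT and 29.6 in the KO library. Skeletal and connective tissue genes went both ways: *Col2a1* (log2 ratio -0.90), *Acan* (-0.86) and *Col1a1* (-0.92) were lower in the KO library and *Lum* (1.17) and *Dcn* (0.76) higher, with medians of -0.42 over 4 cartilage genes and 0.10 over 6 fibroblast and feeder genes. Of the 4 muscle genes, *Myh3* was at 420 FPKM in the WT and 218 in the KO library and *Myog* at 92.8 and 116, while *Ckm* was at 3407 in the WT library and listed at 0 in the other, and *Acta1* was listed at 0 in both. The part of these cell types in the differences was not tested.

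Genes that work with these enzymes were read against all loci, of which 1.13% (ES), 2.56% (day 2), 16.5% (day 4), 20.4% (day 6) and 17.6% (spinal column) were past 2-fold between the labels. With lists this short, counts of 0 or 1 are near those shares and set no list apart. Of the 6 partners of maintenance methylation (*Pcna*, *Lig1*, *Usp7*, *Hells*, *Cdca7* and *Zbtb24*), 0 differed more than 2-fold between the labels in any of the 5 pairs. In spinal cord all 6 were lower than in ES cells, 5 of them more than 2-fold against 35.7% of all loci (4 of the 5 above 1 FPKM in both libraries), with ratios from -0.74 for *Zbtb24*, which is within 2-fold, to -6.91 for *Hells*, a chromatin remodeller needed for DNA methylation. Of 8 partners of de novo and locus-specific methylation, the labelled KO library was higher for 4 at day 4 and for 7 at day 6, and by more than 2-fold for 2 at day 4 (against 16.5% of all loci in either direction) and for 1 at day 6 (against 20.4%). The 2 of day 4 were at 3.13 and 32.3 FPKM for *Dppa3*, which protects methylation in the early embryo, and at 0.279 and 1.78 FPKM for *Prdm14*, and the 1 of day 6 was *Prdm14* (log2 ratio 1.25).

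Of 11 genes of base excision and active demethylation, the labelled KO library was more than 2-fold higher for 3 of 10 at day 4 and lower for 0, against 16.5% of all loci, and at day 6 higher for 2 and lower for 1 of 10, against 20.4%. Of the 9 above 1 FPKM in both libraries, it was higher for 2 at day 4, and higher for 1 and lower for 1 at day 6. The day 6 ratios ran from *Gadd45b* (1.24) to *Smug1* (-1.01). *Tdg*, the glycosylase that removes oxidised methylcytosine, was at 56.96, 67.4, 90.9 and 75.4 FPKM in the labelled WT series and 33.3 in cord. Among 8 methyl-CpG readers 0 differed more than 2-fold between the labels in any pair, where 1.13% to 20.4% of all loci did. In cord 3 of 8 were more than 2-fold higher than in ES cells, near the 30.4% of all loci, and 1 was more than 2-fold lower, against 35.7% of all loci: *Uhrf2* (-1.28), the paralog of *Uhrf1*.

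Of 8 CXXC and TET partner genes, 1 was past 2-fold between the labels at day 6 (against 20.4% of all loci) and the same 1 in spinal column (17.6%): *Cxxc4* (log2 ratios -3.41 and -1.32), the neighbour of *Tet2* in the genome, whose CXXC domain binds unmethylated CpG. *Cxxc4* was at 0.0345 FPKM in the ES library labelled WT, 1.79 at day 4, 2.81 at day 6 and 10.3 in cord, and at 0.264 at day 6 in the library labelled KO. The culture values are low. Of 8 genes that supply S-adenosylmethionine, 0 differed more than 2-fold between the labels in any pair, against 1.13% to 20.4% of all loci, and all 8 were higher under the KO label at day 6, with a median log2 ratio of 0.23. In cord all 8 were lower than in ES cells and 7 of them more than 2-fold, against 35.7% of all loci, with *Shmt1* (-6.15), a serine hydroxymethyltransferase gene, the lowest.

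A list of 12 germline genes known to carry methylated promoters in somatic cells was read beside the enzymes. Many were near or below 1 FPKM, so only those above 1 FPKM in both libraries of a comparison are counted, while the shares of all loci beside them take loci above 1 FPKM in either. In the libraries labelled WT, 4 of 4 were more than 2-fold lower at day 4 than at day 2, where 29.4% of all loci were past 2-fold in either direction. From day 4 to day 6, 4 of 5 were more than 2-fold higher, against 26.9%. The medians of these steps were -2.30 and 2.09, where the 7 pluripotency genes above 1 FPKM in both had -4.56 and 3.72, and the part of the cells behind that list was not tested. *Ddx4*, the germ cell helicase, was at 8.13, 2.60 and 7.15 FPKM at days 2, 4 and 6, and *Dazl* at 1.49, 0.630 and 5.52. *Stra8*, which is named for its response to retinoic acid, ran the other way at the first step, at 0.108 FPKM at day 2, 90.4 at day 4 and 692 at day 6. Between the labels, 5 of 5 had the higher level under the KO label at day 4, and 2 of them were past 2-fold (16.5% of all loci), *Ddx4* and *Mael*. At day 6, of 7 genes, 1 was more than 2-fold higher and 1 more than 2-fold lower (20.4%). None of the list was above 1 FPKM in both ES cells and cord: *Ddx4* was at 14.0 FPKM in the ES library labelled WT and 0.312 in cord, *Dazl* at 1.74 and 0.0502, and *Sycp3* at 12.2 and 0.618. *Brdt* was at 0.257 and 1.56 FPKM. The methylation of their promoters was not measured.

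In motor neuron EBs the ChIP peak lists put RNA POL2 at the starts of *Dnmt1*, *Tet2* and *Tet3*, and TAF9B at none of the RefSeq starts. A peak counted when its midpoint lay within 500 bp of a RefSeq start. RNA POL2 peaks met this at 3 of the 8 genes, against 57.2% of 9603 genes above 1 FPKM in the day 6 library labelled WT. They lay 33 bp from a *Dnmt1* start (chr9:20757071-20757710, score 50.05), 210 bp from that of *Tet2* (chr3:133206890-133207398, score 207) and 146 bp from that of *Tet3* (chr6:83391014-83392038, score 105). All 3 peaks span the start itself, and those of *Tet2* and *Tet3* cover the first exon and have their midpoint in the intron behind it. The *Tet3* start lies head to head with exons of *B230319C09Rik* on the plus strand. Only the *Tet2* peak scored above the median of the list.

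TAF9B had a peak within 500 bp of a RefSeq start at 0 of the 8 genes, against 31.6% of the same 9603 genes. The nearest was 583 bp before a *Dnmt3a* start (chr12:3806314-3806480, score 68.9), 101 bp from the start of another GENCODE M1 transcript of that gene, and a weaker one lay 1105 bp into *Tet2* (chr3:133206150-133206349, score 58.0). The count with all GENCODE M1 transcript starts was 2 of 8, *Dnmt3a* and *Tet1*. In *Tet1*, a TAF9B peak (chr10:62327949-62328377, score 430) and an RNA POL2 peak (chr10:62327794-62328718, score 234) overlap in an intron, 21.9 and 21.8 kb into the gene from its RefSeq start, which had no peak of either kind. Both span the start of a non-coding GENCODE transcript of *Tet1*, with midpoints 111 and 204 bp from it, and the intronic stretch printed above is the 260 bases of the TAF9B peak next upstream of that start. With 6 CpG in 260 bases it is poor in CpG beside the *Tet1* promoter window. Of the remaining peaks within 50 kb, most lay at starts of neighbouring genes, such as *S1pr2* and *Mrpl4* near *Dnmt1*, *Commd7* near *Dnmt3b*, *Pfkl* and *Icosl* near *Dnmt3l* and *Plin3* near *Uhrf1*. The ChIP cultures were 8 days old and of another cell line than the RNA libraries, so peaks and levels do not come from the same cells.

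**Figure D5:**
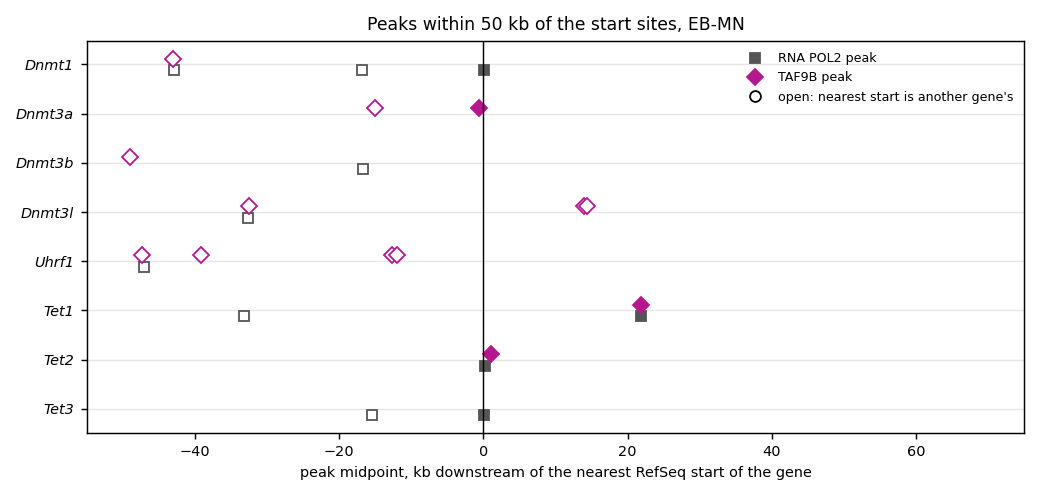
Midpoints of RNA POL2 peaks (squares) and TAF9B peaks (diamonds) within 50 kb of the RefSeq starts of the 8 genes, in kb downstream of the nearest start of the gene; filled symbols have that gene's start as the nearest GENCODE M1 start and open symbols another gene's. RNA POL2 stands at the starts of *Dnmt1*, *Tet2* and *Tet3*, and the *Tet1* peaks of both factors lie 21.8 and 21.9 kb inside the gene.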

How the data were processed

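Poly-A RNA-seq libraries were mapped to RefSeq genes with TopHat and levels were computed with Cuffdiff by the authors, on mm9, and the 6 deposited tables give an FPKM value per locus and library. Versions were not stated. Each table was normalized separately by the authors. The columns of the authors' own fold changes and p-values were not used. The deposited peak lists give a MACS score per peak, from reads that the authors mapped with Bowtie to mm9, and the IgG control has no peak list here. The tables were joined on locus and first accession, which kept 23109 of 23152 loci and left out 43 with a repeated identifier.

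Log2 ratios of FPKM were computed without a pseudocount, with loci below 1 FPKM in both libraries set aside, and a locus counted past 2-fold. With 1 library per condition, no test was made. RefSeq starts were placed on mm9 by exact match of the 300-base window, which 32453 of 32851 windows allowed. A peak was assigned within 50 kb. All 8 genes were named in every library. Of each list the genes with the highest and lowest ratio were named, apart from some that are not reported here, and for each gene the 3 genes of nearest pattern among those above 5 FPKM in at least 1 library. Other genes were named after their values were seen. The genes, lists and alternatives were chosen with earlier results of these data known. Alternatives were 0.1 or 1 FPKM added, no filter or a filter on both libraries, centring, scaling to the 75th percentile, limits of 1.5-fold and 3-fold, the second listing of the ES library, and peak distances of 1000 and 5000 bp. Leaving out FAIL estimates and using GENCODE M1 starts were chosen after the data were seen. The counting was tested on simulated data. The work was done in Python 3.11.15 with numpy 2.4.6, pandas 2.3.3 and matplotlib 3.10.9.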

Additional observations from a re-analysis of the deposited data

Results flagged for a closer look

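*Tet1* is given again because its difference between the labels had opposite directions past 2-fold in late EBs and in tissue. Its log2 ratio, labelled KO over labelled WT, was 1.22 in EBs of day 4 and 1.45 in EBs of day 6, while it was -1.28 in newborn spinal column. With 1 FPKM added to both values the spinal column ratio was -0.57, within 2-fold, and the level behind it in the KO library is 0.516 FPKM, below the limit of 1 FPKM. In ES cells (-0.32) and at day 2 (-0.21) it was within 2-fold and on the side of spinal column. Each value rests on 1 library per side, the day 4 and spinal column estimates are marked FAIL, and the difference between EBs and tissue was not tested.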

How the results depend on the processing

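No paired analysis was possible because each condition has 1 library, and for the same reason no replicate could be left out. Of 122 recomputed counts, 101 stayed within 1.5 times the reported one. With a 1.5-fold limit the counts between the labels were 1 of 8 at day 2, 4 at day 4 and 5 in spinal column, and for the step from day 4 to day 6 they were 6 in the libraries labelled WT and 4 in those labelled KO. With a 3-fold limit they were 1 at day 4, 1 at day 6 and 0 in spinal column between the labels. For the steps this limit gave 2 (WT) and 1 (KO) from ES to day 2, 3 (KO) from day 2 to day 4 and 1 (WT) from day 4 to day 6. With 1 FPKM added, 3 remained at day 6 and 1 in spinal column, and centring gave 5 for the last labelled WT step. Without FAIL estimates the count between the labels at day 4 was 1. TAF9B peaks were found at 1 gene within 1000 bp or by any overlap with the 500 bp on either side, and at 2 within 5000 bp or with GENCODE M1 starts. RNA POL2 peaks above the median score were found at 1. Of 323 recomputed ratios of single genes, all taken from ratios past 2-fold as reported, 313 moved by less than 1.5-fold. Filters and limits do not alter a ratio, and an equal amount added to both values cannot reverse one. The shifts by centring, scaling and the second ES listing were smaller than 2-fold. That 0 ratios changed direction was therefore fixed in advance and is no measure of robustness. The depth of the libraries is unknown, so how far values near 1 FPKM can be trusted cannot be given.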
